A study of Mus musculus with 2 samples.

Results

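The aminoacyl-tRNA synthetases were described in the mouse erythroid line G1E-ER4, whose parental cells lack Gata1 and in which a fusion of GATA1 to an estrogen receptor domain restores GATA1 function once estradiol activates it. The genes were chosen by name: protein-coding genes whose symbol is an amino acid letter followed by "ars", with or without a number, together with Farsa and Farsb. This gave 36 of 22028 protein-coding genes, of which 19 encode cytosolic enzymes and 17, whose names end in 2, encode mitochondrial enzymes. Eprs, which encodes the bifunctional cytosolic enzyme for glutamate and proline, and Tarsl2 do not match the name rule and were described beside the set. The series holds 1 group with n = 2 libraries of polyadenylated RNA, from cells given 17beta-estradiol at 10 nM for 24 h. The labels number the libraries as biological replicates 1 and 2, and both share 1 biosample record. The labels do not name separate cultures, and the differences between the libraries may thus be technical. No untreated or parental sample was compared, so the values are levels in treated cells and carry no p-value.

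Each synthetase joins an amino acid to the end of its matching tRNA, and the ribosome reads the tRNA, not the amino acid. The enzymes fall into a class I and a class II by the fold of the catalytic domain. Cytosolic enzymes serve the ribosomes that make globin and most other proteins, while the mitochondrial enzymes, also encoded in the nucleus, serve the few proteins made from mitochondrial DNA. In red cell precursors translation is tied to heme through the eIF2alpha kinase HRI, and the transcription factor ATF4, which acts after that kinase, is known to raise many cytosolic synthetase genes.

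The element that ATF4 binds together with C/EBP proteins has the core TGATGNAA, so this core was looked for on both strands of the RefSeq promoter windows, which run from 250 bases before to 50 bases after each gene's start (GRCm38.p6). Of the 36 members, 25 had at least 1 window under their symbol. The core lay in a window of 5 of these 25 genes (Aars, Gars, Iars, Tars and Yars), against 4.51% of the 27025 genes with a window. It lay in 5 of 11 cytosolic genes and in 0 of 14 mitochondrial genes. All 5 genes are on a list of cytosolic synthetases known as ATF4 targets, of which 6 had a window, the other being Sars, and none of the 5 cytosolic genes outside that list held the core (Dars, Farsa, Farsb, Kars and Qars). With TGATGNAAT, a longer form that overlaps the core, 3 members were left (Aars, Gars and Iars), against 1.08% of genes. A match describes these letters and does not show that a factor binds there. The stretches that hold the core are shown because they separate these 5 genes from the other members with a window. Each is written 5′ to 3′ along its gene with the match in capitals, so a match on the opposite strand reads TTNCATCA. Positions count from the start, with 1 as the first transcribed base.
Aars, chr8:111033704-111033763, plus strand, match from -112 to -105: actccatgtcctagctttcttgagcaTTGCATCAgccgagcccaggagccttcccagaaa
Aars, chr8:111033840-111033869, plus strand, match from 10 to 17: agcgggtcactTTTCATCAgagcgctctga
Gars, chr6:55037941-55038000, plus strand, match from -30 to -23: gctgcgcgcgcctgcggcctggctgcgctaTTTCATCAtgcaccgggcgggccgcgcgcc
Iars, chr13:49682126-49682155, plus strand, match from 8 to 15: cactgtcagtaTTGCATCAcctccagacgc
Tars, chr15:11399659-11399718, minus strand, match from -15 to -8: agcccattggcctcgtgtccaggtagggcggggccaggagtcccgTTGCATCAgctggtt
Yars, chr4:129189895-129189924, plus strand, match from 4 to 11: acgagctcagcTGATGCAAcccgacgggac
In Gars and Tars the match ended within 30 bases before the start, in Iars and Yars it lay just after it, and in Aars there was a match on each side. Of these 5 genes Gars was higher in replicate 2, and Aars, Iars, Tars and Yars were lower there.

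The libraries differed 5.06-fold in depth (71485617 against 14121747 expected counts, replicate 1 being the deeper), so low values of replicate 2 carry more counting error. All 6 erythroid markers looked at (Gata1, Klf1, Hbb-bs, Hba-a1, Slc4a1 and Alas2) were at 69.04 TPM or more in each library. Of 15 markers of granulocytes, lymphocytes, mast cells, megakaryocytes and stroma, 2 reached 1 TPM in both libraries, the megakaryocyte genes Itga2b and Gp9. TPM is an abundance per transcript length that sums to a fixed total in each library.

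Most synthetase genes were present in both libraries, and the cytosolic genes stood above the mitochondrial ones. At 1 TPM or more in both replicates, 32 of 36 members were detected, against 33.1% of all protein-coding genes. The detected members were 18 of 19 cytosolic and 14 of 17 mitochondrial genes, and those that missed the threshold were Farsb, Pars2, Rars2 and Wars2. The median cytosolic level was 39.1 TPM in replicate 1 and 18.1 TPM in replicate 2, and the median mitochondrial level was 9.21 and 8.45 TPM. The cytosolic median was thus 4.25 times the mitochondrial one in replicate 1 and 2.14 times in replicate 2. For comparison, 55 genes whose names start with Eif had medians of 43.5 and 21.7 TPM. They hold translation initiation factors and also regulators, such as the kinase genes Eif2ak1 and Eif2ak4. The 78 genes for mitochondrial ribosomal proteins had medians of 28.5 and 14.0 TPM, above those of the mitochondrial synthetases that charge tRNA for the same ribosomes. These sets were detected at 46 of 55 and 65 of 78 genes.

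**Figure D1:**
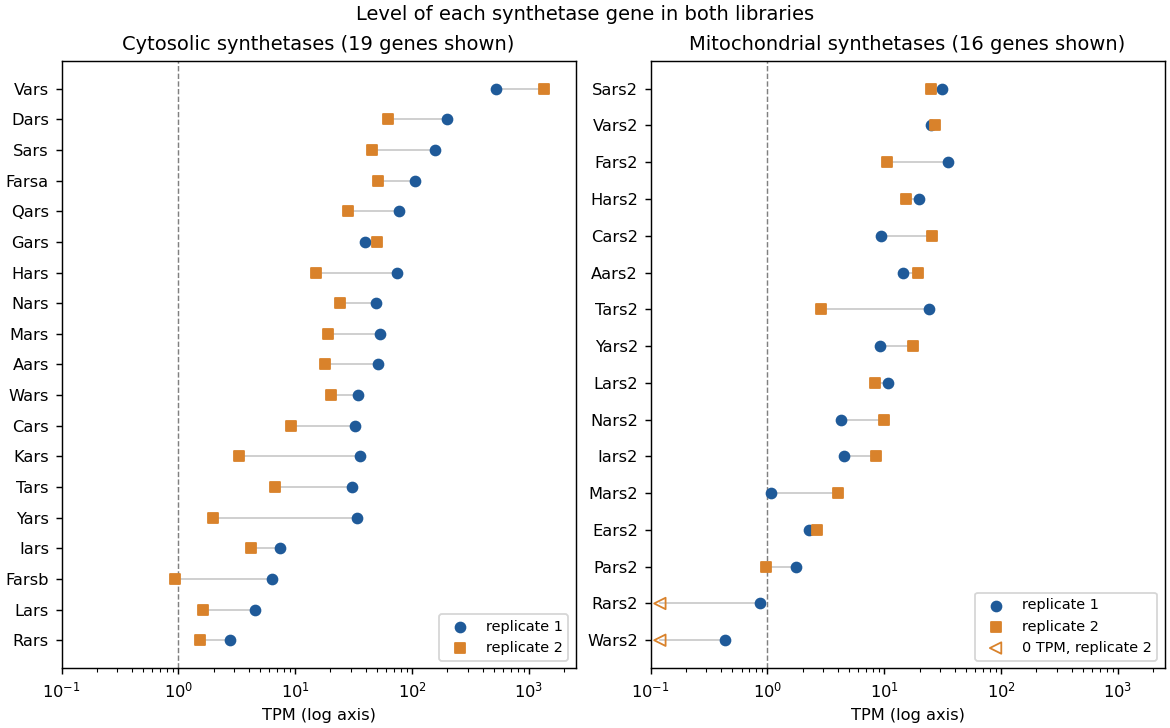
Level of each synthetase gene in TPM (log axis) in replicate 1 (circles) and replicate 2 (squares), with cytosolic genes on the left and mitochondrial genes on the right, ordered by their mean; the dashed line marks 1 TPM and triangles mark 0 TPM. Vars stands apart at 525 and 1331 TPM, most cytosolic squares lie left of their circles, and Rars2 and Wars2 are at 0 TPM in replicate 2.

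Among the cytosolic enzymes, 7 members belong to the multisynthetase complex, a large assembly in which synthetases are held by the scaffold proteins of Aimp1, Aimp2 and Eef1e1. Their gene levels were far from equal, with a span of 2.78 to 198.6 TPM in replicate 1 and of 1.52 to 61.9 TPM in the other library. Dars (ENSMUSG00000026356.15, chr1:128363707-128417368), the aspartate enzyme, was the highest of them at 198.6 and 61.9 TPM, a mean of 130.3 ± 96.7 TPM (SD, n = 2). Qars, the glutamine enzyme, was at 77.9 and 28.4 TPM, and Mars, the methionine enzyme, at 53.4 and 19.0 TPM. The full-length coding transcripts of Qars were at 0 TPM in both libraries, also in the table made from the reads. Its largest transcript in replicate 1 was Qars-233, a coding transcript of 544 bases (53.2 and 5.18 TPM). Kars, whose gene encodes both the cytosolic and the mitochondrial lysine enzyme, was at 35.9 and 3.29 TPM. The lowest were Iars for isoleucine (7.38 and 4.18 TPM), Lars for leucine (4.49 and 1.63 TPM) and Rars for arginine (2.78 and 1.52 TPM). All 7 were lower in replicate 2 than in replicate 1, beside 5493 of the 9029 genes with a mean of at least 50 expected counts. This did not hold for the table made from the reads, rescaled over nuclear protein-coding genes. There Iars (8.24 and 9.06 TPM) and Lars (5.68 and 6.55 TPM) were higher in replicate 2. Eprs, the eighth synthetase of the complex, was close to the low end at 4.24 and 2.20 TPM. Of the scaffolds, Aimp2 was at 105.1 and 52.8 TPM, Aimp1 at 4.89 and 2.83 TPM and Eef1e1 at 11.4 and 1.03 TPM.

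The cytosolic enzymes outside the complex held the highest value of the whole set. Vars, the valine enzyme (ENSMUSG00000007029.16, chr17:35000987-35016322), reached 525 TPM in replicate 1 and 1331 TPM in the other library (mean 928 ± 570 TPM). It was above every other member in both libraries and made up 34.6% and 78.6% of the summed TPM of the cytosolic synthetases. The interval the authors deposited for its posterior estimate, at an unstated level, spanned 512 to 525 TPM in the first library and 1226 to 1277 TPM in the other. Sars, which charges serine and selenocysteine tRNAs, followed at 155.6 and 45.3 TPM, a mean of 100.4 ± 78.0 TPM. Hars for histidine was at 74.5 and 14.9 TPM, Aars for alanine at 50.6 and 18.1 TPM and Nars for asparagine at 49.3 and 24.0 TPM. All 4 were lower in replicate 2, and their neighbours in this order did not differ beyond that spread.

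Gars, the glycine enzyme of cytosol and mitochondria alike (ENSMUSG00000029777.10, chr6:55038007-55079500), was the most even of the abundant cytosolic genes at 39.1 and 50.5 TPM, a mean of 44.8 ± 8.03 TPM. Wars for tryptophan was at 34.5 and 20.0 TPM, Yars for tyrosine at 33.6 and 1.96 TPM, Cars for cysteine at 32.3 and 9.23 TPM and Tars for threonine at 30.9 and 6.64 TPM. The enzyme for phenylalanine is built from an alpha chain (Farsa) and a beta chain (Farsb) in equal number. Farsa was at 104.9 and 51.5 TPM and Farsb at 6.34 and 0.93 TPM, so the alpha chain gene was 16.5-fold higher in replicate 1 and 55.3-fold higher in replicate 2, where Farsb had 21 expected counts. In full-length coding transcripts the ratios were 57.0 and 52.3, and in the table made from the reads 17.4 and 8.34, so the size of the gap in replicate 2 depended on the table.

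The mitochondrial enzymes covered a narrower range at the top. Sars2 for serine (31.2 and 24.98 TPM, mean 28.1 ± 4.36) and Vars2 for valine (24.9 and 27.3 TPM, mean 26.1 ± 1.71) had the highest means. The libraries differed more for Vars2 on other scales, with 37.0 and 17.7 CPM (counts scaled to library size) and 5.44 and 1.38 TPM in full-length coding transcripts. Fars2, a single-chain phenylalanine enzyme, was above both in replicate 1 at 34.8 TPM and at 10.5 TPM in replicate 2. Most of its TPM in replicate 1 was Fars2-206, a processed transcript of 506 bases (31.3 and 2.24 TPM). In full-length coding transcripts Fars2 was at 1.73 and 1 TPM, and in the M4 annotation at 10.5 and 4.27 TPM. Hars2 (19.9 and 15.5 TPM), Aars2 (14.4 and 19.3 TPM), Cars2 (9.41 and 25.8 TPM), Yars2 (9.21 and 17.5 TPM) and Tars2 (24.0 and 2.87 TPM) formed the middle of the order, where neighbours were not separated beyond their spread.

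Lars2 was at 10.8 and 8.35 TPM, Nars2 at 4.22 and 9.96 TPM and Iars2 at 4.51 and 8.45 TPM. Low values were found for Mars2 (1.07 and 3.99 TPM), for Ears2 (2.26 and 2.67 TPM), which charges the mitochondrial glutamate tRNA, and for Pars2 (1.74 and 0.98 TPM). Rars2 and Wars2, the arginine and tryptophan enzymes, were the lowest, with 0.86 and 0.43 TPM in replicate 1 and 0 TPM in replicate 2. The deeper library held 67 and 122 expected counts of them and the other 0. Against a floor of 3 counts per library, and in CPM, Rars2 was at least 4.41-fold higher and Wars2 at least 8.03-fold higher in replicate 1. These bounds hold for the alignment table alone: the table made from the reads, rescaled over nuclear protein-coding genes, gave 1.27 and 1.03 TPM for Rars2 and 0.795 and 0.948 TPM for Wars2. The authors' posterior intervals of these 2 genes nevertheless overlapped between the libraries, at 0.730 to 1.74 TPM against 0.348 to 2.56 TPM for Rars2.

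For 15 amino acids both a cytosolic and a mitochondrial member exist, which gives 16 pairs with both phenylalanine chains. The cytosolic gene was the higher in 14 of 16 pairs in replicate 1 and in 9 of 16 in replicate 2, and in 9 pairs it was the higher in both. Vars was 21.1 and 48.8 times Vars2, and Mars was 49.9 and 4.76 times Mars2, but 1.33 and 0.406 times in full-length coding transcripts. The mitochondrial gene was the higher in both libraries in 2 pairs: Lars was at 0.416 and 0.195 times Lars2, and Farsb at 0.182 and 0.0890 times Fars2. In full-length coding transcripts Farsb was nearly equal to Fars2, at 0.919 and 0.930 times. Lars was there at 1.18 and 0.32 TPM and Lars2 at 6.78 and 0 TPM, so this pair changed side. The other 5 pairs, those of Aars, Cars, Hars, Iars and Yars, changed side between the libraries, for example Yars from 3.65 to 0.112 times Yars2. In 11 of the 14 pairs with values in both libraries the ratio was smaller in replicate 2. The order within a pair was therefore the same in both libraries for 11 of 16 pairs. In the table made from the reads, the cytosolic gene was the higher in both libraries in 14 pairs, and in full-length coding transcripts in 10.

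**Figure D2:**
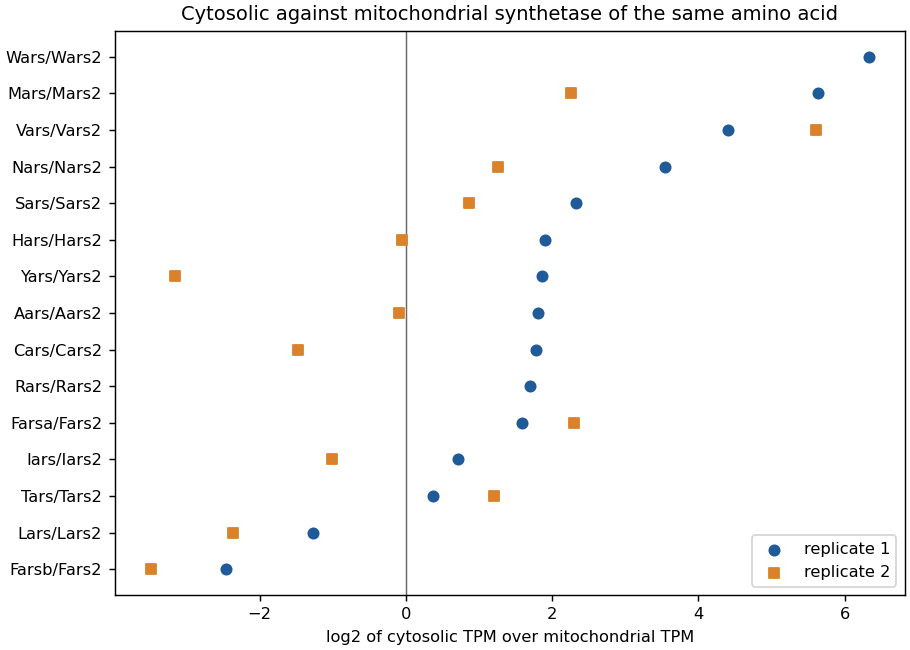
Log2 of the cytosolic over the mitochondrial TPM for 15 of the pairs, with circles for replicate 1 and squares for replicate 2 and the line at equal levels; no square is drawn where the mitochondrial gene is at 0 TPM. Circles lie right of the line in 13 of the 15 pairs shown and squares left of it for Aars, Cars, Hars, Iars, Yars, Lars and Farsb.

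A gene's TPM adds up all of its annotated transcripts, and for many synthetases most of it did not sit in transcripts that encode the whole enzyme. A transcript was taken as full-length coding where it is annotated as protein coding with at least 90% of the longest coding length of its gene. This measure was chosen after the values had been seen. Over the 18 detected cytosolic genes the median share of TPM in full-length coding transcripts was 65.1% in replicate 1 and 53.8% in replicate 2. Over the 14 detected mitochondrial genes it was 15.8% and 3.77%, and over all 7297 detected protein-coding genes it was 60.9% and 50.2%. In both libraries 9 of 14 detected mitochondrial genes had under 50% of their TPM there, against 6 of 18 cytosolic and 38.9% of all detected protein-coding genes. The table made from the reads gave medians of 53.3% and 54.9% for cytosolic and 7.78% and 6.09% for mitochondrial genes, so both tables placed the mitochondrial genes lower. How reads are divided between overlapping transcripts is an estimate, and the transcripts were not measured one by one.

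Gars, Iars and Wars had nearly all of their TPM in full-length coding transcripts, with shares of 95.7% or more in each library. Dars was the opposite case: Dars-202, a coding transcript of 645 bases that starts at the gene's start and ends 48411 bases before its end, held 188.1 of 198.6 TPM in replicate 1 and 60.2 of 61.9 TPM in replicate 2. The full-length Dars-201 was at 10.5 and 1.66 TPM. By full-length transcripts of the alignment table Dars was thus no longer the highest gene of the complex. In the table made from the reads, Dars-201 was at 10.8 and 3.41 TPM. There Dars was below Kars in replicate 1 but the highest of the complex in replicate 2, so its place depended on the table.

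In Vars, full-length coding transcripts were at nearly the same level in both libraries, 208.7 and 210.6 TPM, while the gene total differed 2.54-fold. The difference lay in Vars-213, a coding transcript of 819 bases near the 5′ end (246.7 and 808.5 TPM), and in Vars-212, a transcript of 826 bases annotated as a retained intron near the 3′ end (46.2 and 307.0 TPM). Vars held 75141 and 19876 expected counts, which is 1051 and 1407 CPM, a log2 ratio of 0.42 against 1.34 in TPM. Vars was also the highest synthetase by full-length transcripts, with 30.6% and 49.7% of their cytosolic sum.

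Transcripts annotated as retained introns held over 50% of the TPM in both libraries in 6 of the 32 detected members, against 7.99% of all detected protein-coding genes. Among these were Mars (92.2% and 88.5%), Nars (69.7% and 71.2%), Hars2 (95.6% and 67.9%), Yars2 (95.6% and 57.3%) and Vars2 (71.1% and 93.5%). In Mars most of it was Mars-204, which has 467 bases and lies at the 3′ end of the gene (40.2 and 7.02 TPM), and Mars-205 of 3065 bases (8.50 and 9.80 TPM). The full-length Mars-201 was at 1.42 and 1.62 TPM. Mars overlaps the stress gene Ddit3, with which the full-length Mars-201 shares 1.31% of its words of 31 bases.

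**Figure D3:**
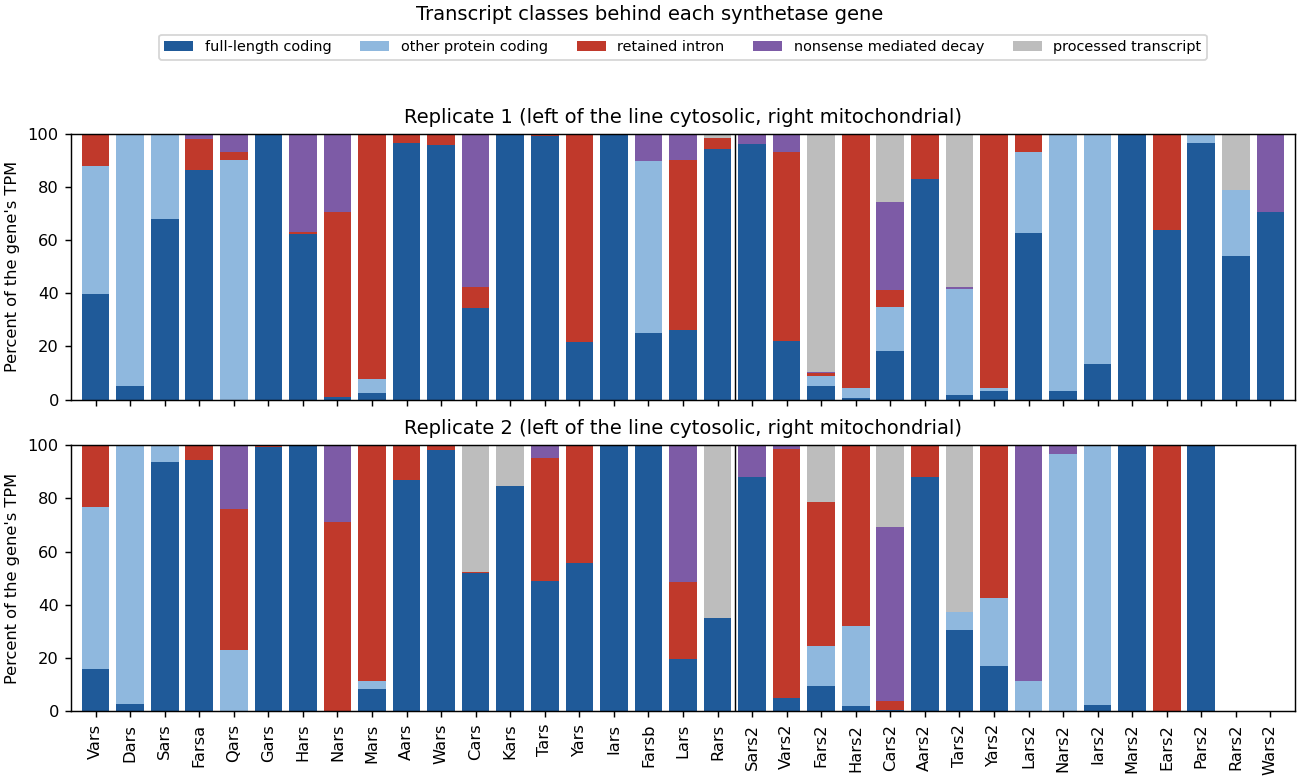
Percent of each gene's TPM in full-length coding, other protein coding, retained intron, nonsense mediated decay and processed transcripts, with replicate 1 above and replicate 2 below; cytosolic genes are left of the line and mitochondrial genes right of it, each by falling mean TPM. Gars, Iars, Wars and Mars2 are nearly all full-length coding, Dars is nearly all another coding transcript, and Mars, Hars2, Yars2 and Vars2 are mostly retained intron; Rars2 and Wars2 have no bar in replicate 2.

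The cytosolic genes were lower in replicate 2 as a group and the mitochondrial genes were not. Of genes with a mean of at least 50 expected counts, all 19 cytosolic and 16 mitochondrial members could be compared. The median log2 ratio of replicate 2 over replicate 1 in TPM was -1.48 for cytosolic and -0.09 for mitochondrial members, beside -0.42 for all 9029 genes. Relative to that overall shift the cytosolic members were at -1.06 and the mitochondrial members at 0.33. In replicate 2, 17 of 19 cytosolic members were lower, and Vars and Gars were the exceptions, while 8 mitochondrial members were lower and 8 higher, and of all 9029 genes 5493 were lower. By more than 2-fold, 14 cytosolic and 3 mitochondrial members were lower in replicate 2, against 35.4% of the 9029 genes. In the other direction 1 cytosolic member (Vars) and 3 mitochondrial members (Cars2, Mars2 and Nars2) were more than 2-fold higher, against 15.5% of genes. With the median of all genes set to 0, the cytosolic counts were 12 lower and 1 higher and the mitochondrial counts 3 lower and 5 higher, and those of all genes were 2418 and 2194 in place of 3199 and 1401. In the rescaled table made from the reads, 14 of 19 cytosolic members were lower in replicate 2, and 10 were more than 2-fold lower. Of all genes compared there, 1957 of 9008 were more than 2-fold lower. In the M4 annotation the cytosolic count more than 2-fold lower in replicate 2 was 9, against 3067 of 8852 genes. In full-length coding transcripts 8 of 16 mitochondrial members were more than 2-fold lower and 4 more than 2-fold higher. Their median log2 ratio was -1.16 with members at 0 TPM in replicate 2 counted as lowest. Over the 11 with values in both libraries it was -0.45. The same measure gave 11 of 18 cytosolic members more than 2-fold lower (median -1.47), and 4018 of all 8426 genes (median -0.90). Of the 3 mitochondrial members over 2-fold higher in gene TPM, only Mars2 was higher in replicate 2 in full-length coding transcripts. Cars2 was there at 1.71 and 0.14 TPM and Nars2 at 0.14 and 0 TPM. In CPM Cars2 was 1.52-fold and Nars2 1.93-fold higher in replicate 2. Most of the Cars2 level in replicate 2 was Cars2-204, annotated as nonsense mediated decay (0.85 and 15.1 TPM). The contrast between both groups thus depended on which transcripts were summed.

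The largest falls in gene TPM among members with a value in both libraries were those of Yars (33.6 and 1.96 TPM) and Kars (35.9 and 3.29 TPM), which were 17.1-fold and 10.9-fold lower in replicate 2, with 43 and 66 expected counts there. In full-length coding transcripts the differences were 6.67-fold for Yars and 12.8-fold for Kars. In the rescaled table made from the reads they were 1.70-fold (47.6 and 28.03 TPM) for Yars and 4.30-fold (33.8 and 7.85 TPM) for Kars. The genes named Eif had a median log2 ratio of -0.61 and the mitochondrial ribosomal protein genes one of -1.01, both below that of the mitochondrial synthetases. None of these differences between gene sets was tested. The ATF4 target list without Eprs, 11 members, had a median of -1.48, and the 8 other cytosolic members one of -1.57. The authors' posterior intervals of replicates 1 and 2 did not overlap for 27 of the 35 members compared, against 75% of all genes compared, so the members did not stand out from the library difference by this measure. The GC content of the members, from 38.8% to 60.3%, showed r = -0.01 with the log2 ratio over 34 members, beside r = 0.22 over 8889 genes. These are descriptions across genes that share the same 2 libraries.

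Several members start next to another gene. In the M21 annotation, 10 of 36 members had a protein-coding gene on the opposite strand with a start within 1000 bases, against 10.8% of all protein-coding genes. Hars and Hars2, the cytosolic and mitochondrial histidine genes, lie head to head, and their annotated starts overlap by 197 bases. They did not move together: Hars had a log2 ratio of -2.32 and Hars2 of -0.36. Sars2 starts 172 bases from Mrps12, which encodes a protein of the small mitochondrial ribosomal subunit and was at 275.6 and 491.5 TPM. Kars starts 75 bases from Terf2ip, a telomere gene, at 6.64 and 11.1 TPM, which was higher in replicate 2 while Kars was lower. Members also shared sequence with other genes: of 35 looked at, 5 had a full-length transcript of which at least 10% of words of 31 bases lie in transcripts of another gene. They were Iars2 with Rab3gap2 (36.8%), Aars with Exosc6 (22.7%), Iars with the pseudogene Gm4849 (20.4%), Cars2 with Naxd (19.7%) and Farsb with Sgpp2 (10.97%). The same count over all protein-coding genes was not made. The share given is that of the full-length transcript with the largest share. For Farsb this was Farsb-202, at 0 TPM in both libraries in the alignment table, while Farsb-201 shared 0%. For Iars it was Iars-202, also at 0 TPM there, while Iars-201 and Iars-206 shared 17.8% and 17.7%. Reads from the shared stretches may count for either gene, so values of the 5 genes carry an uncertainty that was not measured. No source used here says whether counting was stranded.

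Of 19 other genes of tRNA charging, 14 were detected, against 33.1% of all protein-coding genes. Of those with a value above 0 in both libraries, 17 were lower in replicate 2 and 1 was higher, beside 5493 lower of the 9029 genes compared above. Those 9029 genes had passed the filter of a mean of 50 expected counts, which was not applied to these 19. Prorsd1, which these counts leave out, had 13.7 TPM in the deeper library and 0 TPM in the other and was thus lower too. Tarsl2, a second cytosolic threonine enzyme, was at 15.3 and 11.1 TPM beside 30.9 and 6.64 TPM for Tars. Mitochondria make glutaminyl-tRNA by amidation, and of the 3 subunit genes of that enzyme Gatc was at 17.0 and 13.4 TPM, Gatb at 3.28 and 0.83 TPM and Qrsl1 at 0.97 and 0.68 TPM. Aarsd1, which edits mischarged alanine tRNA, was at 27.6 and 15.8 TPM. The elongation factors that carry charged tRNA to the ribosome were at 185.7 and 120.6 TPM (Eef1a1, cytosolic) and at 18.3 and 11.5 TPM (Tufm, mitochondrial). The 1 gene higher in replicate 2 was Pstk, a kinase of the selenocysteine route, at 24.0 and 30.8 TPM, with its full-length transcripts listed at 0.

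The genes of the amino acid and heme stress response were mostly present. At 1 TPM or more in both libraries, 7 of 8 were detected, against 33.1% of all protein-coding genes. Eif2ak1, which encodes HRI, was at 105.2 and 125.0 TPM, and Eif2ak4, the kinase that senses uncharged tRNA, at 8.08 and 5.30 TPM. Atf4 was at 61.9 and 30.6 TPM, its target Asns, the asparagine synthetase, at 31.2 and 11.7 TPM, and Ddit3 at 144.6 and 24.4 TPM. Trib3 (6.03 and 8.21 TPM) and Sesn2 (19.3 and 18.4 TPM) differed less, and Chac1 was at 0.03 and 0.75 TPM. Eif2ak4, Atf4, Asns, Sesn2 and Ddit3 were lower in replicate 2, and Eif2ak1, Trib3 and Chac1 were higher. All members with the promoter core except Gars were lower there, but so were 17 of the 19 cytosolic members. With 2 libraries no relation between the stress genes and the members could be tested.

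The table made from the reads gave Lars2 a far higher level than the alignment table did. Over the members other than Lars2 its TPM was a median of 0.806 times the alignment value in replicate 1, with a range from 0.544 to 1.43, and 0.273 times in replicate 2, with a range from 0.182 to 3.41. The upper end in replicate 2 was Yars, at 6.68 TPM in the table made from the reads. Lars2 (ENSMUSG00000035202.8, chr9:123366927-123462666), the mitochondrial leucine enzyme, was at 10.8 and 8.35 TPM in the alignment table but at 1238 and 34.6 TPM in the table made from the reads, which is 114.8 and 4.14 times as much. It then made up 89.8% and 43.1% of the summed TPM of the mitochondrial members. The ratios between both tables used TPM as deposited and thus also hold the difference in scale between the tables. Rescaled over nuclear protein-coding genes, the table made from the reads gave Lars2 1671 and 145.2 TPM. Vars went from 427.1 and 326.7 TPM to 576.5 and 1372 TPM by the same rescaling, so the scale mattered most in replicate 2. The level of Lars2 was therefore not settled by these files, and its full-length transcripts were at 6.78 and 0 TPM in the alignment table.

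**Figure D4:**
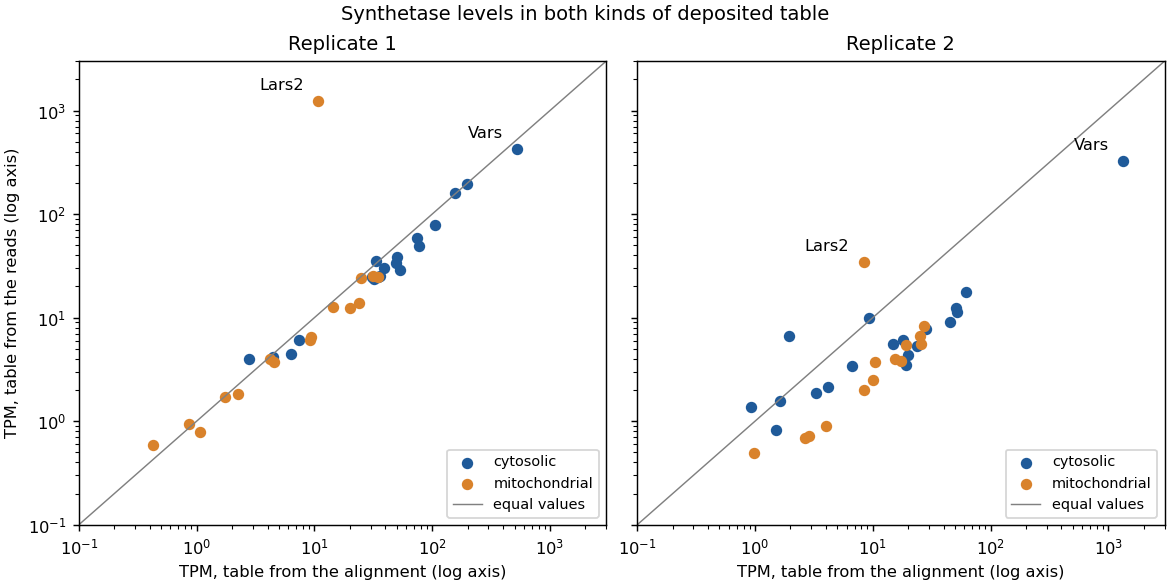
TPM of each member in the table made from the alignment (horizontal, log axis) against the table made from the reads (vertical, log axis), with replicate 1 on the left and replicate 2 on the right; the line marks equal values, and members at 0 TPM in the alignment table are not drawn. Lars2 lies far above the line in replicate 1 at 1238 against 10.8 TPM, and most members lie below it in replicate 2. Values are as deposited, without rescaling.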

How the data were processed

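Both libraries of the series were used, and samples were grouped by their labels (1 group, n = 2). Per the deposited descriptions, reads were placed on mm10, and each library has gene and transcript tables for GENCODE M21 and M4 from an alignment and an M21 transcript table from the reads; no source used here names the aligner or quantifiers. The authors' expected counts are estimated fragments per entry, not always whole. The authors' TPM, per the file headers, is scaled to a fixed total per table and given as a maximum likelihood and a posterior mean estimate, with deposited interval bounds.

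Main values come from the M21 gene tables, with coordinates from that annotation. Detection was set at 1 TPM in both replicates, and ratios between replicates were taken for genes with a mean of 50 expected counts, a gene at 0 in replicate 2 counting as lowest. The floor is 3 counts and covers counting error only. Words of 31 bases were compared between M21 transcripts on both strands. Members are named by role; 1 member is counted with its group but its own values are not reported here. The members and lists were chosen with earlier results of these data known. With 1 group no test between conditions was made. Alternatives were the M4 table, posterior means, TPM rescaled over nuclear protein-coding genes, the table from reads, other thresholds and pseudocounts, CPM, TMM (edgeR) and DESeq2 scaling of rounded expected counts, each replicate alone and full-length transcripts alone. The code that counts genes over 2-fold apart was checked on simulated data. Software was Python 3.11.15 with pandas 2.3.3, numpy 2.4.6 and matplotlib 3.10.9, and R 4.3.3 with DESeq2 1.42.0 and edgeR 4.0.16. Protein sequences were not used here.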

Additional observations from a re-analysis of the deposited data

Results flagged for a closer look

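Lars2-205, a transcript of 889 bases annotated as a retained intron of Lars2, had 0 expected counts in both libraries in the table made from the alignment, but the table made from the reads gave it 1184 TPM in replicate 1 and 20.9 TPM in the other library. It was listed because it was the only member transcript with at most 3 counts in the main table and at least 10 TPM in the other one in both libraries. The reads assigned to it there numbered 112126 and 1671, which is 0.113% and 0.00523% of that table's counts. It lies from 87863 bases after the start of Lars2 to 767 bases before its end. The source of these reads was not tested.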

How the results depend on the processing

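No paired analysis was possible because the series has 1 group. The counts of detected members stayed within 1.5-fold under all alternatives except for mitochondrial genes at 5 TPM (8) and in full-length coding transcripts (5). The median level, as a mean of both replicates, was 7.18 TPM (cytosolic) and 0.685 TPM (mitochondrial) in full-length transcripts, against 28.6 and 8.83 TPM. The mitochondrial median was 6.64 TPM with M4, 9.37 TPM in the rescaled table from reads, 8.03 TPM without Vars and Lars2, and 3.16 in place of 3.30 on a log2 scale with a pseudocount of 0.1. Pairs with the higher cytosolic gene numbered 14 in the table from reads, and 9 to 14 with 1 replicate left out.

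The cytosolic median log2 ratio was negative throughout, at its weakest -0.96 with M4, where 9 genes were over 2-fold lower. No cytosolic gene was over 2-fold higher (0) in CPM, with TMM, with DESeq2 factors or in full-length transcripts. The mitochondrial median changed sign to 0.26 (M4), 0.021 (posterior means), 0.17 (table from reads), 0.27 (TMM), 0.35 (DESeq2 factors) and 0.33 (all genes centred). It was -0.048 over nuclear protein-coding genes, -0.31 without a count filter, -0.32 at a mean of 10 counts and -1.16 in full-length transcripts. Mitochondrial genes over 2-fold lower were 5 in CPM, against 3731 of all 9029 genes. They were 8 in full-length transcripts, against 4018 of 8426 genes. With all genes centred, 5 were over 2-fold higher, against 2194 of 9028 genes.

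The median share of protein coding transcripts was 98.6% (cytosolic) and 100% (mitochondrial) with M4, which lists 181 member transcripts against 290 in M21, and 59.4% and 9.80% for full-length transcripts alone, against 86.5% and 43.6%. The retained intron median was 0.937% and 0% with M4 and 2.24% (cytosolic) in the table from reads, against 3.66% and 7.10%. The longer motif left 3 members. The causes of these changes were not tested beyond the transcripts listed. With 2 libraries the SD is imprecise, and the depth of replicate 2 limits genes under 50 counts there.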
